A study of Mus musculus with 9 samples.

Results

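Many mouse loci that lay between annotated genes when the Agilent array was designed are printed on it as probes that carry no gene symbol, only an interval and a strand. These probes were chosen by name: every non-control probe whose gene name is a mouse chromosome from 1 to 19, a start and an end on the mm9 assembly, and the letter F or R for the forward or reverse strand. The rule found 4275 of the 56605 non-control probes, 2143 on the forward strand and 2132 on the reverse strand. They belong to 3093 intervals of 62 to 538251 bases (median 7328 bases), and since many intervals carry probes on both strands or several probes on 1 strand, they bear 3905 different names. All 4184 members with probe coordinates lay inside the interval of their name and on its strand, and the other 91 had no usable coordinates. Another 174 probes named in this way on chromosome X fell outside the rule, and 185 members on chromosome 18 were counted but are not named here.

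Levels were measured in primary hepatic stellate cells of C57BL/6 mice aged 10 weeks, on 3 single-colour arrays for each of 3 groups. The quiescent group (qhsc) was untreated, and no harvest time is given for it. The control-siRNA group (nc) was plated, kept on hard plastic for 7 days, which activates these cells, and then given a negative control siRNA overnight at 5 nM. The Cav1-siRNA group (si-cav) had the same culture and the same dose of an siRNA against Cav1, which encodes caveolin-1, a coat protein of the membrane pits called caveolae. The nc and qhsc groups therefore differ in days of culture, in activation and in transfection, which cannot be told apart. They differ in part by slide as well: the quiescent arrays and control-siRNA array 1 were on slide 1 and all others on slide 2. Nothing in the labels tells separate mice or cultures apart within a group, so a p-value here reflects the spread of 3 samples, which may be technical.

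Long intergenic noncoding RNAs are transcribed by RNA polymerase II, usually capped, spliced and polyadenylated, and differ from messenger RNAs in lacking a long open reading frame. Many are made at low levels and in few cell types, and some act on neighbouring genes or on chromatin. Hepatic stellate cells store vitamin A in the healthy liver and turn into contractile, collagen-making myofibroblasts when the liver is injured or when the cells are grown on plastic. The name of such a probe gives an interval and a strand but no gene model. A probe may thus lie in an exon of a noncoding RNA, in an unannotated end of a neighbouring gene, or in a transcript of another kind. Since 812 intervals carry probes on both strands, the strand in a name need not be that of a known transcript.

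Each member is 1 probe of 60 bases whose sequence is that of the transcript it detects. The probes below are those on which the results turn, written 5′ to 3′ with the motif AATAAA, the usual polyadenylation signal, in capitals. The first set holds the 4 largest rises from quiescent to control-siRNA cells, with probe positions on mm9 in the order chr17:34018374-34018433, chr5:92558850-92558909, chr17:95174242-95174301 and chr5:15168445-15168504.
chr17:34018371-34019394_R: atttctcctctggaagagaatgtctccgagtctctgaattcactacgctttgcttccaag
chr5:92556322-92558910_F: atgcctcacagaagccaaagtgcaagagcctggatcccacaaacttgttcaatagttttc
chr17:95150800-95180650_F: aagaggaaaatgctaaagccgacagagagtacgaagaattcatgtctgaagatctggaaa
chr5:15146475-15170100_F: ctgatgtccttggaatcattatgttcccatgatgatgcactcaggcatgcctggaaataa

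The second set holds falls of the same comparison, each followed, where the other strand of the interval is described too, by the probe of that strand. The probes lie in turn at chr7:4847202-4847261, chr7:4828722-4828781, chr9:78116774-78116833, chr6:4843716-4843775, chr6:4843642-4843701, chr1:71940116-71940175, chr6:129182745-129182804 and chr6:129188246-129188305.
chr7:4827340-4863315_F: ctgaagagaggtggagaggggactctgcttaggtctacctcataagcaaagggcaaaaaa
chr7:4827340-4863315_R: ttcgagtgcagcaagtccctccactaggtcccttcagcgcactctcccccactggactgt
chr9:78104935-78116974_F: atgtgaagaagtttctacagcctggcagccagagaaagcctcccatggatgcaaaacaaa
chr6:4841700-4847400_R: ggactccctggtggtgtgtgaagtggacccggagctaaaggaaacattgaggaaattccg
chr6:4841700-4847400_F: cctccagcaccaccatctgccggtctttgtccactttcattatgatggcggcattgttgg
chr1:71939741-71947891_F: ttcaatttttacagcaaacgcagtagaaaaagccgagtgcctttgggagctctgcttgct
chr6:129151512-129208737_R: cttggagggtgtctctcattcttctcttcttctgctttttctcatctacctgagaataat
chr6:129151512-129208737_F: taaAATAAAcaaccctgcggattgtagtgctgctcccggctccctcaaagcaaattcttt

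The third set holds the 3 members with the lowest p in the knockdown, at chr14:21462202-21462261, chr9:120432159-120432218 and chr8:67554789-67554848.
chr14:21461716-21462270_F: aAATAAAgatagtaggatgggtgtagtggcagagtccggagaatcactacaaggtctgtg
chr9:120422400-120433300_R: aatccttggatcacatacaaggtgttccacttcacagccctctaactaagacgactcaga
chr8:67542714-67561694_F: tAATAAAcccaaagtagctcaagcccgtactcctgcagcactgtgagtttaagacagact

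Of all 4275 members, 173 probes (4.05%) held AATAAA on the strand of the transcript, against 10.2% of the other probes. Its reverse complement TTTATT was in 2.85% of the members and 3.93% of the others. The GC content of the member probes had a median of 45%, against 41.7% in the others. A run of at least 25 bases was shared with another probe of the array by 103 members, so those signals are not fully specific to 1 locus. Only probes of the array were compared, not transcripts or the genome, so the count does not show that the remaining members are specific.

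Detection was judged by the scanner software's flag for a spot well above background. In quiescent cells 1946, 1505 and 1968 members passed it on arrays 1, 2 and 3 (45.5, 35.2 and 46.0%). In control-siRNA cells 2469, 2654 and 2889 passed (57.8, 62.1 and 67.6%), and in Cav1-siRNA cells 2318, 2549 and 2613 (54.2, 59.6 and 61.1%). The quiescent arrays were all below the 6 cultured ones, whose groups overlapped each other. Group means were 42.3 ± 6.11% in quiescent, 62.5 ± 4.92% in control-siRNA and 58.3 ± 3.63% in Cav1-siRNA cells (SD, n = 3). An exact two-sided permutation test gave p = 0.1 for control-siRNA against quiescent cells, the smallest value that 3 arrays against 3 can give, and p = 0.4 for the knockdown. The other probes of the array were detected more often, at means of 57.1, 65.4 and 62.7%.

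**Figure D1:**
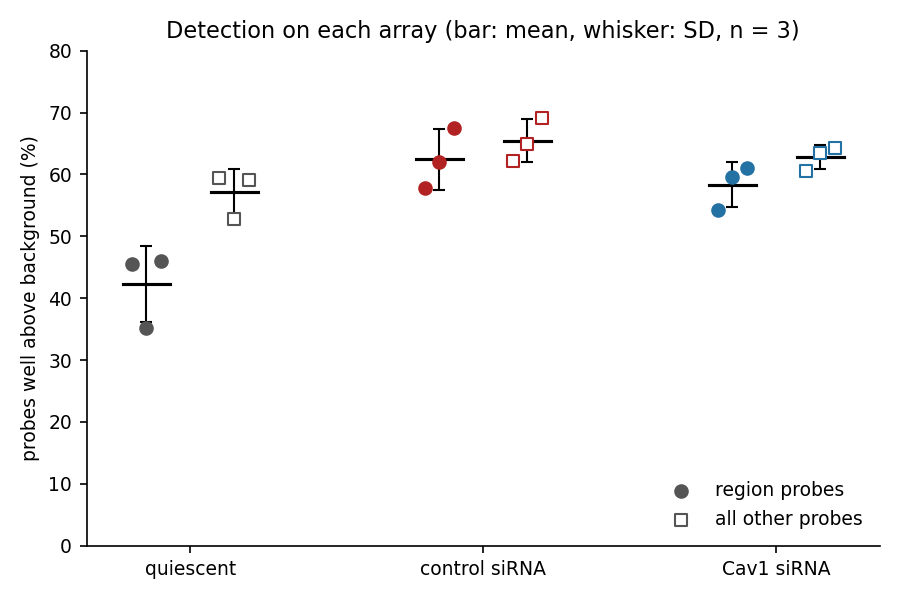
Share of probes well above background on each array (vertical axis, percent) in the 3 groups, for the 4275 interval-named probes (filled circles) and all other probes (open squares), with the mean and SD of 3 arrays. Interval-named probes lie between 35.2 and 46.0% on the quiescent arrays and between 54.2 and 67.6% on the cultured ones.

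Above background on all 9 arrays were 1249 members (29.2%, against 45.0% of the other probes), and 1060 were above it on none. A pattern of detection on all control-siRNA arrays and on no quiescent array was shown by 399 members, 9.33% of them, against 5.86% of the other probes. The opposite pattern was shown by 22 members, 0.515% against 2.59% of the others. Detection rose with the length of the interval: 49.1% of the members with the shortest intervals (62 to 1787 bases) were kept for testing, and 62.4% of those with the longest (25852 to 538251 bases). To be kept, a probe had to pass the flag on every array of some group and have a value on all 9 arrays, which held for 2469 members (57.8%) and 65.6% of the other probes. The 1806 members not kept have no test and appear in none of the counts that follow.

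The first comparison, control-siRNA against quiescent cells, asks what changed as stellate cells were activated in culture. In it 976 kept members were higher and 408 lower at an adjusted p under 0.05 (limma over all 36817 kept probes, Benjamini-Hochberg). That is 56.1% of the kept members, against 67.9% of all kept probes, with 39.5% higher (43% over all probes) and 16.5% lower (25% over all probes). With slide as a block, which leaves control-siRNA array 1 as the only one on the quiescent arrays' slide, 684 members were higher and 241 lower, 37.5% of those kept. The share of all kept probes called with that block is not given here, so the drop cannot be read as particular to the members. The median log2 change with the block was 0.35 over the members and 0.32 over all kept probes. Without the block, changes of at least 2-fold were called for 753 members upward (30.5%, against 29.7% of all kept probes) and 213 downward (8.63% against 18%). The values of the 2 groups did not overlap for 1418 members (57.4%, against 69.8% of all kept probes). The median log2 change was 0.38 over the members and 0.36 over all kept probes. Beside these changes, markers of other liver cells moved: 15 of 15 measured hepatocyte genes, 10 of 10 macrophage genes, 10 of 10 endothelial genes and 8 of 8 lymphocyte and neutrophil genes were lower in control-siRNA cells. The summed log2 level of the hepatocyte list ran from 10.33 to 10.56 on the quiescent arrays and from 4.04 to 4.38 on the control-siRNA arrays, where Apoa1, Cps1, Cyp3a11, Hnf4a, Pck1 and Ttr were below background. The same ranges were 8.23 to 8.91 and 5.03 to 5.16 for the macrophage list (Clec4f, Timd4 and Vsig4 below background in control-siRNA cells). They were 8.27 to 9.03 and -0.89 to -0.65 for the endothelial list (Cdh5, Tek and Tie1 below background), and 4.58 to 5.77 and -1.30 to -1.02 for the lymphocyte and neutrophil list (Gzmb and S100a9 below background). Of 15 measured stellate cell genes, none was below background in quiescent cells, where their summed level ran from 4.80 to 6.07, and only Lrat was so in control-siRNA cells, where it ran from 9.60 to 9.64. Markers of several other liver cell types were thus above background in the samples labelled as quiescent stellate cells. The part of these cells in the falls of members was not tested, and in bulk samples fewer cells of a type and less RNA per cell cannot be told apart.

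The split into rises and falls differed between subsets of members and between settings. Of the 976 rises, 349 were below background on every quiescent array. The same share among rises of other probes is not given here, so it cannot be read as particular to the members. Among the 1265 members above background on all 6 arrays of the comparison, 338 were higher and 353 lower, with a median log2 change of -0.10, whereas 40.2% of the other probes measured on all 6 arrays were higher and 27.2% lower. That subset leaves out the 399 members detected on every control-siRNA but no quiescent array and the 22 with the opposite pattern, so its split is set in part by its choice. Of the called members, 70.5% were higher with the processed signal as deposited, against 63.3% of all called probes. With another background correction (normexp with the 75th percentile, called normexp in what follows) this share was 26.9% (409 higher and 1114 lower), against 44.4% of all called probes. It was 52.1% with no filter on dim probes (47.6% of all called probes) and 48.9% with the filter set on all 9 arrays (60.1%). Scaling to probes above background on all arrays gave 60.1% (55.4%). The share thus shifted over the whole array as well. With normexp the 8 largest rises named below ran from 2.34 to 3.69 and the 8 largest falls from -7.19 to -2.70, and 12 of these 16 folds were over 1.5 times smaller than those printed. The 8 rises, 8 falls and 5 lower bounds in each direction named below kept their direction and their call in all 21 or 22 alternatives that gave a value.

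**Figure D2:**
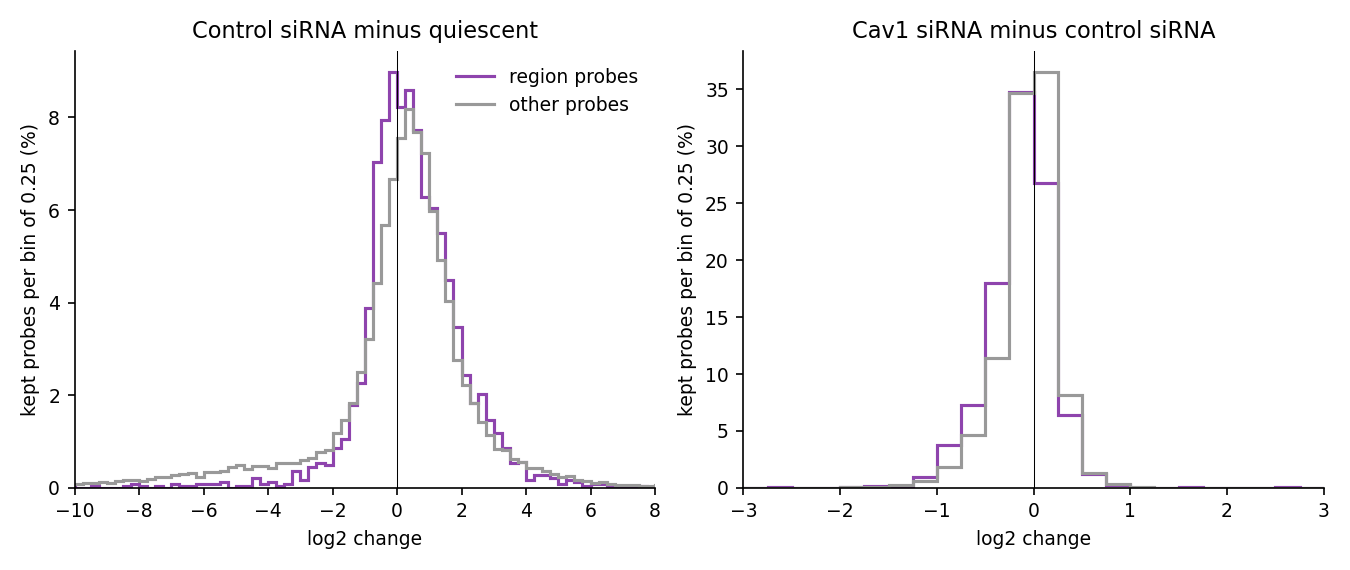
Distribution of log2 changes over kept probes (horizontal axis, bins of 0.25; vertical axis, percent of probes), for interval-named probes and all other probes, in control-siRNA minus quiescent cells (left) and Cav1-siRNA minus control-siRNA cells (right). In the left panel 16.5% of interval-named and 25.6% of other probes were called lower, and 27.9% and 27.2% among probes measured on all 6 arrays, a difference that was not tested. The right panel is narrow.

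Members are described here on the log2 scale relative to the 75th percentile of their array, so 0 is the signal of that percentile. The largest rise among members measured on all 6 arrays was chr17:34018371-34019394_R. Its log2 signal was -2.82, -3.75 and -4.79 on the quiescent arrays and 0.56, 0.78 and 1.28 on the control-siRNA arrays. No values overlapped, and the rise of 4.66 ± 0.441 (SE) is a 25.3-fold increase (limma adjusted p = 1.41e-05). A named gene lies close by on the same strand: a probe of Kifc1, a kinesin motor that works on the mitotic spindle, is 2385 bases away. No quiescent array showed that probe above background, and it was at least 1.78-fold higher in control-siRNA cells (limma adjusted p = 3.60e-05), but with normexp its log2 change was 0.01.

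The member chr5:92556322-92558910_F had log2 signals of -3.73, -3.32 and -2.87 in quiescent and 0.89, 0.97 and 0.83 in control-siRNA cells. The groups were far apart, with a rise of 4.20 ± 0.208 and an adjusted p of 1.96e-07 in limma. Its nearest named gene probe, of Uso1, a tethering factor of Golgi vesicles, lies 54154 bases away and rose by 1.80. For chr17:95150800-95180650_F the signals were -1.82, -1.76 and -2.66 against 1.64, 2.26 and 2.23, a rise of 4.12 ± 0.268 (limma adjusted p = 1.13e-06). This interval holds the transcribed pseudogene 2700099C18Rik on the same strand, whose own probe rose by 3.71 (1.87 with normexp).

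A pair of members on chromosome 5 moved alike. The member chr5:15146475-15170100_F rose from -0.84, -1.20 and 0.08 to 3.13, 2.81 and 3.53, a change of 3.81 ± 0.334. Close in value, chr5:14943275-14944205_F rose from -0.82, -0.71 and 0.07 to 3.04, 2.95 and 3.60, a change of 3.68 ± 0.286. Neither has a named gene probe within 10 kb. The remaining large rises were chr5:22890322-22939119_R (3.78), chr10:81846505-81863606_F (3.68) and chr12:117623500-117643575_R (3.65), each with adjusted p below 0.05 in limma and no overlap between groups. The first of these shares a run of 42 bases with a probe of the lncRNA gene 5031425E22Rik, which rose by 3.51. The second shares 53 bases with the member chr10:81816994-81863610_F, which rose by 3.54, so these pairs are not independent. The third interval holds the lncRNA gene D430020J02Rik on the same strand, which rose by 2.51 (1.27 with normexp).

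Among falls, chr7:4827340-4863315_F had the largest change of a member still above background in control-siRNA cells. It was bright in quiescent cells, at 4.09, 3.66 and 4.33, and near the floor in control-siRNA cells, at -5.62, -5.21 and -5.31. The fall of 9.40 on the log2 scale (SE 0.281, limma adjusted p = 1.06e-08) is a 677-fold change, and the normexp change was -7.19. It was above background on 1 of the 3 Cav1-siRNA arrays. The next fall was chr9:78104935-78116974_F, from 2.14, 0.18 and 2.31 to -4.77, -4.58 and -4.53, a fall of 6.17 on the log2 scale (SE 0.488). Quiescent array 2 was lower than the other two, yet far above every control-siRNA array. The overlapping member chr9:78107225-78118850_F fell from -0.56, -1.53 and 0.21 to -5.40, -5.24 and -4.75. The probes of these members adjoin (78116774-78116833 and 78116834-78116893), so they are not independent readings of the locus. The nearest named gene to both on their strand, Gm10639, has its probe 36469 and 36409 bases away and fell by 6.92 on the log2 scale (normexp change -4.72).

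The member chr6:4841700-4847400_R fell from 1.73, 1.67 and 1.25 to -4.77, -4.36 and -3.96, a 60.2-fold change (limma adjusted p = 4.58e-08). For chr1:71939741-71947891_F the signals went from 0.92, 0.84 and 1.31 to -4.46, -4.85 and -4.44, a 49.0-fold change (limma adjusted p = 1.97e-08). Its interval holds the lncRNA gene Gm28818 on the opposite strand only, and that gene did not pass the test, at a log2 change of -0.25. The member chr6:129151512-129208737_R went from 3.11, 2.83 and 3.88 to -2.23, -2.48 and -2.30, a 48.8-fold change, and the lncRNA gene 2310001H17Rik inside this interval on the same strand fell by 2.87 on the log2 scale (normexp change -1.68). Further falls were chr10:93819821-93976621_F (20.9-fold) and chr10:96098058-96098623_F (15.5-fold). The latter lies 13110 bases from a probe of Btg1, an antiproliferative gene, on the same strand, which fell by 3.92 on the log2 scale.

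**Figure D3:**
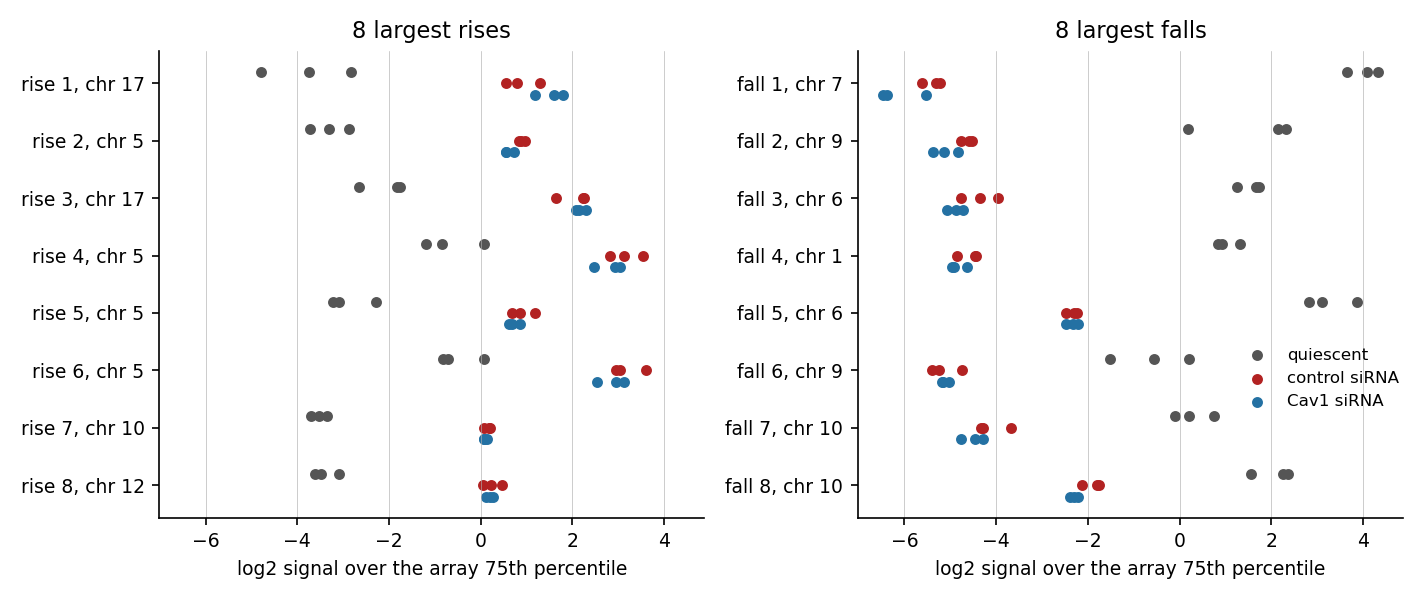
Log2 signal relative to the array's 75th percentile (horizontal axis) on each of the 9 arrays, for the 8 largest rises (left) and 8 largest falls (right) among interval-named probes above background on all quiescent and control-siRNA arrays, in the order of the size of the change, labelled by chromosome. Grey, red and blue points are quiescent, control-siRNA and Cav1-siRNA arrays. In every row the grey points lie apart from the other 2 groups.

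Where a member was below background on all 3 arrays of a group, its change is a lower bound: the dim group's signal was replaced by the faintest one still flagged as detected there, or by the member's own where that was brighter. The largest such bounds among rises were at 2 overlapping intervals of chromosome 17. The member chr17:3346621-3347209_F went from -5.94, -5.48 and -5.41 to 0.29, 0.36 and 0.30 and was at least 38.9-fold higher (normexp log2 change 2.93). The interval of chr17:3198868-3394643_F contains it, and this member, at -0.18, -0.38 and -0.41 in control-siRNA cells, was at least 25-fold higher (normexp log2 change 2.61). The nearest named gene to both, the guanine nucleotide exchange factor Tiam2, is 92251 and 92433 bases away, and its change of 0.82 did not pass the test.

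The member chr4:88583425-88584070_R was at least 20.5-fold higher (normexp log2 change 2.18), and chr12:5303823-5379098_R at least 16.9-fold (1.89). For chr3:86827945-86886695_R the bound was 17.8-fold (normexp log2 change 2.17), with control-siRNA signals of -0.61, -0.81 and -1.03. That interval holds a probe of Kirrel, a cell adhesion protein of the immunoglobulin superfamily, on the same strand 5062 bases away, and Kirrel rose by 6.16 ± 0.324.

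In the other direction, chr6:40693617-40720167_F was at 1.61, 1.42 and 2.27 in quiescent cells and below background on all 6 cultured arrays. It was at least 241-fold lower in control-siRNA cells (normexp log2 change -5.05). Its nearest named gene, Mgam, an intestinal maltase-glucoamylase, was itself not kept for testing. The member chr19:36699712-36763966_R was at least 82.6-fold lower, in an interval that holds Hectd2os on its strand. The nearest protein-coding gene, Hectd2 on the opposite strand, did not pass the test, at a log2 change of 0.10. For chr16:86770170-86874921_R, at least 71.5-fold lower, the lncRNA gene Gm32461 inside the interval on its strand was at least 94.4-fold lower (normexp log2 change -3.95). The members chr2:52241435-52245307_F and chr17:32035750-32056000_R were at least 70.6-fold and 59.4-fold lower, from quiescent signals of 0.17, -0.88 and 0.70 and of -0.47, -0.18 and -0.12.

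The strands of an interval often differed. Of 812 intervals with probes on both strands, 352 had a kept probe on each, 340 on only 1 and 120 on none. Where both were kept, 64 intervals had both strands called the same way in the activation comparison (44 higher, 20 lower) and 29 in opposite ways. A further 179 had 1 strand called and 80 neither. Across the 352 intervals the changes of the strands correlated at Pearson r = 0.26, a description only, since both probes share arrays and locus. The interval at chr7:4827340-4863315 gave the widest gap: its forward probe fell by 9.40, while the reverse probe went from -1.93, -2.30 and -2.30 to -2.36, -2.78 and -2.58, a change of -0.40 that did not pass the test (limma adjusted p = 0.0628). That call is not firm, since the reverse probe passed in 6 of 22 alternatives. At chr6:129151512-129208737 the reverse probe changed by -5.61 and the forward probe by -0.68 (limma adjusted p = 0.00323, lost at 0.0784 with slide as a block). At chr6:4841700-4847400 the probes of both strands lie side by side, and changed by -5.91 on the reverse and -1.94 on the forward strand.

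Probes that carry the same name should report the same transcript if the interval is 1 unit. There were 299 names with more than 1 probe, and 149 of them had more than 1 kept probe, which made 198 pairs. In 143 pairs (72.2%) the activation changes had the same sign, and in 85 of the 96 pairs with both probes called they were called the same way. The changes correlated at r = 0.61 over the pairs, with a median absolute difference of 0.74 on the log2 scale, so an interval name is not a guarantee of 1 value.

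Named genes close to a member served as a reading of its surroundings. Within 10 kb, 1418 members had a probe of a gene with a symbol, and in 714 pairs both probes were kept. These pairs involve 444 genes, since several members can share a neighbour. Their activation changes correlated at Pearson r = 0.50 (Spearman rho 0.48), and of 325 pairs with both called, 276 were called the same way. With the neighbour on the same strand (434 pairs), r was 0.65 and 194 of 217 called pairs went the same way. With the neighbour on the opposite strand (280 pairs), r was 0.24 and the count was 82 of 108. Within 50 kb, where 3226 members had a neighbour, r fell to 0.48 on the same strand and 0.22 on the opposite strand. An interval held a probe of a named gene on its own strand for 437 members, which involved 330 genes, 198 of them annotated as lncRNA and 113 as protein coding by RefSeq. For those members the name "intergenic" holds only for the annotation of the array's design.

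**Figure D4:**
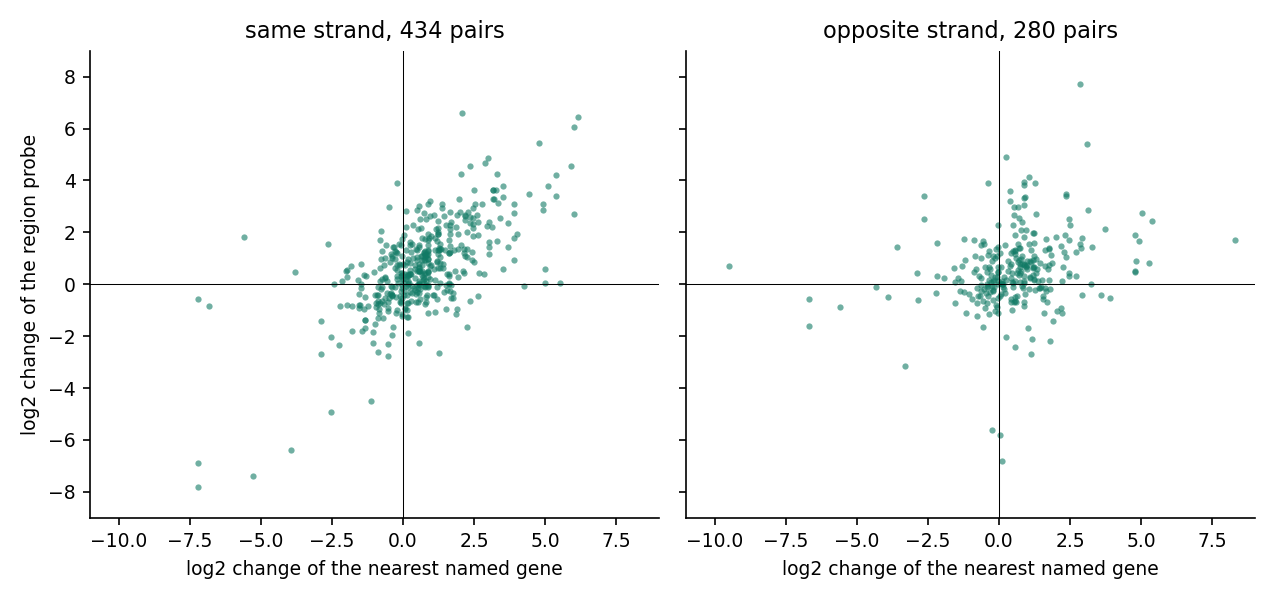
Log2 change in control-siRNA against quiescent cells of each kept interval-named probe (vertical axis) against that of the nearest named gene probe within 10 kb (horizontal axis), for neighbours on the same strand (left, 434 pairs) and on the opposite strand (right, 280 pairs). Points follow the diagonal more closely on the left (r = 0.65) than on the right (r = 0.24).

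Several members lie over long noncoding RNA genes that have names, taken from a list of 77 such genes of which 63 were on the array and 53 were kept. By their own gene probes, 29 of the 53 were higher and 11 lower in the activation comparison (43% and 25% of all kept probes), with a median log2 change of 0.75 where that of all kept probes was 0.36. The largest rises were those of Dnm3os, which hosts miR-199a and miR-214 (7.10 ± 0.438), Mir100hg, host of miR-100 and let-7a (6.68 ± 0.336), Rian (6.01, at least 24.3-fold from below background), Meg3 (5.85 ± 0.162) and Airn, the antisense RNA of the Igf2r locus (5.31 ± 0.153), all called in limma. The order rests on the background correction: with normexp the changes were 5.63 for Meg3, 4.89 for Airn, 4.65 for Mir100hg, 4.57 for Dnm3os and 2.49 for Rian. Of the 3 quiescent arrays, Dnm3os was above background on 1 and Mir100hg on 2. Meg3, Rian and Mirg are read one after another from the maternal chromosome in the imprinted Dlk1-Dio3 region. The largest falls were those of Mirt2 (at least 21.7-fold, normexp log2 change -2.21), H19 (at least 10.2-fold, normexp log2 change -1.66), Dleu2 (-4.42), Hand2os1 (-3.14) and Jpx, an activator of Xist (-2.18). For Dleu2 the probes disagreed and ran up to 2.00, and the 3 probes of Mir100hg ran from 0.87 to 9.82.

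The overlap of members with these genes was listed after values had been seen, and it is a description. Outside chromosome 18, 18 members lay in an interval that holds 1 of 11 listed genes on the same strand. Of these, 15 were kept, 13 were higher in control-siRNA cells and 1 was lower, where 43% of all kept probes were higher and 25% lower. Along the Dlk1-Dio3 region, 5 such members, all on the forward strand, were kept. The Mirg interval chr12:110944403-110988678_F went from -6.39, -5.74 and -6.17, below background, to -1.32, -1.57 and -1.75, at least 10.71-fold higher (normexp log2 change 1.52). In the Rian interval chr12:110842154-110883594_F, 1 probe went from -4.32, -4.73 and -4.27 to -1.49, -1.13 and -1.39 (3.11 ± 0.179, or 1.40 with normexp). A second probe there was at least 1.88-fold higher. Of the 2 probes of chr12:110896603-110940553_F, 1 was at least 1.38-fold higher and the other gave no bound above 1. All 3 were below background on every quiescent array, and with normexp their changes were 0.05, -0.07 and -0.35. The reverse-strand probes of chr12:110896603-110940553 and chr12:110944403-110988678 were not above background on any quiescent or control-siRNA array.

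Over all these intervals, 13 members lay on the opposite strand, of which 9 were kept and 5 were higher, again beside 43% of all kept probes. At Emx2os, chr19:59498190-59531390_R rose from -7.07, -6.34 and -5.24 to 0.56, 0.41 and 0.13, a change of 6.59 ± 0.387 (limma adjusted p = 5.81e-07). Only 1 quiescent array showed it above background, and the change was 3.04 with normexp. The probe of the Emx2os gene itself was above background on no quiescent array and changed by 2.09, but by -0.28 with normexp. The forward probe of the interval was not kept. At Crnde, chr8:94841965-94881130_R went from -7.61, -6.27 and -7.57 to -2.09, -2.54 and -2.25, at least 6.38-fold higher (normexp log2 change 1.09), and its forward probe was not kept either. The Snhg18 interval chr15:32167516-32174417_R was at least 11.6-fold higher (normexp log2 change 1.55), from below background to -1.77, -1.21 and -1.31, while its forward probe changed by 0.51 and did not pass the test.

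At Pvt1, a noncoding neighbour of Myc, both probes of chr15:61984389-62102500_F rose alike, by 3.63 ± 0.290 and 3.65 ± 0.186. Here the reverse strand was not silent: its 2 probes were below background on all quiescent arrays and at least 2.54-fold and 4.37-fold higher on the control-siRNA arrays (limma adjusted p = 1.56e-04 and 8.89e-08). The Tug1 interval chr11:3538125-3554450_R was at least 4.01-fold higher (normexp log2 change 0.30), and its forward probe rose by 1.59. At Gas5, a host of small nucleolar RNAs, chr1:162965309-162970704_F changed by 0.58 ± 0.180 (limma adjusted p = 0.0184), but by 0.013 with normexp. The 2 kept probes of the Platr4 interval chr3:41143423-41359623_R disagreed: 1 was at least 17.2-fold lower (normexp log2 change -1.73), from -2.18, -2.14 and -1.80, and the other changed by -0.24 without passing the test.

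Some members were bright on every array. The probe chr17:17481706-17482457_R gave 7.60, 7.20 and 7.68 in quiescent, 7.07, 6.96 and 7.05 in control-siRNA and 7.06, 7.07 and 7.01 in Cav1-siRNA cells. Its activation change of -0.46 passed the test (limma adjusted p = 0.0249) but did so in only 13 of 22 alternatives. The probe chr1:193875525-193978800_R, whose interval holds Rcor3 on the same strand, fell from 7.89, 7.99 and 8.24 to 5.30, 5.03 and 5.06 (2.91 on the log2 scale), although Rcor3 itself rose. The probe chr14:22267795-22319045_F fell from 7.13, 6.69 and 7.46 to 4.84, 4.43 and 4.56, and chr4:141527564-141547339_F from 6.76, 6.37 and 6.25 to 5.28, 5.13 and 4.92. No call was made for chr11:22681800-22707775_R, chr7:108209996-108216032_R, chr14:78924115-78938125_F and chr17:48068261-48087905_F, with changes of -0.05, 0.12, 0.14 and 0.21. Of these, chr7:108209996-108216032_R shares a run of 28 bases with the probe of the ribosomal protein gene Rps29, and chr17:48068261-48087905_F matches a probe of Mif, a cytokine gene, at 42 of 46 aligned bases. The probe chr11:22681800-22707775_R matches 48 of 58 aligned bases of the member chr2:167085700-167117795_R. Such signals may come from more than 1 transcript.

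The second comparison, Cav1-siRNA against control-siRNA cells, asks what depended on caveolin-1 in activated cells. The Cav1 probe at chr6:17289414-17289473 gave -1.34, -1.12 and -1.09 in control-siRNA and -2.87, -2.89 and -3.07 in Cav1-siRNA cells, so the groups did not overlap (log2 change -1.76 ± 0.240, unadjusted p = 4.67e-05, adjusted p = 0.172 in limma). In quiescent cells it was at -4.87, -5.65 and -5.84. No member was called, and neither was any other probe (0 of 36817, 0%). At an unadjusted p under 0.05 in limma, 131 members were lower and 18 higher, where 3.92% and 0.722% of all kept probes were lower and higher. Values of the 2 groups did not overlap for 538 members (21.8%, against 22.4% of all kept probes). The median log2 change was -0.09 over the members and -0.02 over all kept probes. The unadjusted 95% interval of a member's change had a median half-width of 0.58 on the log2 scale. With array weights 44 members were called lower and 11 higher. The share of all kept probes called with weights is not given here, so these calls cannot be read as particular to the members.

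The lowest p of a member belonged to chr14:21461716-21462270_F, which ranked 2 among all 36817 kept probes, ahead of Cav1 at 10. Its log2 signals were -0.64, -0.59 and -0.64 in control-siRNA cells and -2.04, -1.84 and -1.99 in Cav1-siRNA cells. In quiescent cells it gave -2.24, -1.73 and -2.04, so that the Cav1-siRNA values lay in the quiescent range and both were far below the control-siRNA values. It had risen by 1.38 ± 0.158 from quiescent to control-siRNA cells (limma adjusted p = 5.09e-05). The change after Cav1 siRNA was -1.33 ± 0.158 (95% interval -1.69 to -0.97, unadjusted p = 1.58e-05, adjusted p = 0.131 in limma), and -1.34 within the slide that held all Cav1-siRNA arrays. Since the control-siRNA arrays enter both differences, the one is not support for the other. The probe was called in 6 alternatives, at adjusted p from 0.00112 (array weights) to 0.0485 (only the 6 arrays of the comparison).

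This locus has 3 other kept probes on the same strand. The probe of chr14:21462770-21463270_F, 644 bases downstream, gave -3.01, -2.90 and -2.34 in control-siRNA and -4.27, -7.15 and -5.03 in Cav1-siRNA cells, without overlap. Its change was -2.73 ± 0.622 (unadjusted p = 0.00179, adjusted p = 0.594 in limma), and it was above background on 2 of the 3 Cav1-siRNA arrays. Upstream, at 1228 and 1219 bases, the probes of chr14:21460230-21461364_F and chr14:21437920-21464655_F did not follow. These 2 probes overlap for most of their length (21460974-21461033 and 21460983-21461042), so they are not independent. They went from -0.02, -0.01 and -0.07 to 0.11, 0.05 and -0.03, and from -0.15, -0.28 and -0.32 to -0.08, -0.10 and -0.08, changes of 0.08 and 0.16 with a standard error of 0.177 and 0.174. The 3 interval-named probes on the reverse strand within 20 kb were not kept. Nearest among named genes were Myoz1, a sarcomere protein of striated muscle, not kept for testing, and Synpo2l, an actin-associated protein, which changed by -0.06. The locus was singled out after its values had been seen.

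**Figure D5:**
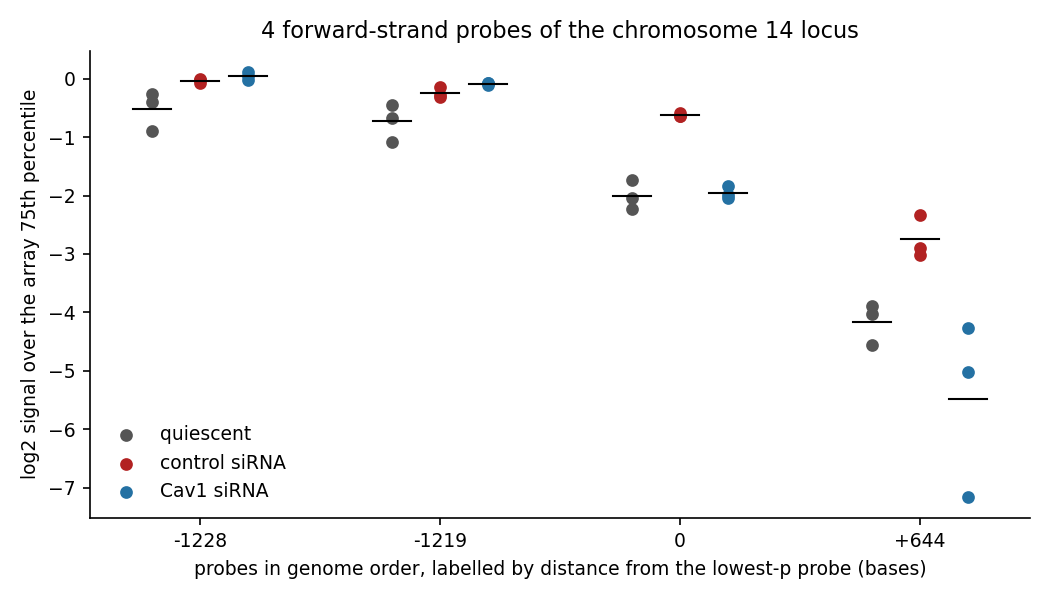
Log2 signal relative to the array's 75th percentile (vertical axis) of the 4 kept forward-strand probes around chr14:21461716-21462270_F, in genome order and labelled by distance in bases, on each array of the 3 groups with group means as bars. The 2 upstream probes, which overlap each other and are not independent, show no drop after Cav1 siRNA. The probes at 0 and 644 bases lie lower in Cav1-siRNA than in control-siRNA cells.

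The other members with the lowest p in the knockdown were dim. The probe chr9:120422400-120433300_R was below background in quiescent and control-siRNA cells (-7.05, -6.99 and -7.06 in the latter) and above it in Cav1-siRNA cells (-4.97, -5.94 and -5.61), at least 1.56-fold higher (unadjusted p = 3.55e-04, adjusted p = 0.454 in limma). Likewise chr8:124355710-124401160_F, 33197 bases from the amino acid transporter gene Slc7a5, was detected in Cav1-siRNA cells alone (-4.48, -4.47 and -4.22), at least 3.38-fold higher. These bounds too hold for the processed signal only: the log2 change of chr9:120422400-120433300_R ran from 0.21 to 1.74 over the alternatives. The member chr8:67542714-67561694_F went from -5.91, -5.98 and -5.99 to -6.88, -6.58 and -6.76, where it was no longer above background on any array. The sixth, chr16:32309935-32328234_F, changed by 0.83 ± 0.191. None passed the adjusted threshold. Of the 53 measured genes of the noncoding RNA list none was called, and Snhg11, Cerox1 and Rian had an unadjusted p under 0.05 in limma.

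Cav1-siRNA cells against quiescent cells gave 859 members higher (34.8%, against 41.8% of all kept probes) and 463 lower (18.8% against 25.9%), together 53.5% against 67.6%, with a median log2 change of 0.23 where that of all kept probes was 0.32. This comparison shares the quiescent arrays with the first and the Cav1-siRNA arrays with the second. The named rises and falls kept their size: chr17:34018371-34019394_R was 5.30 higher, chr5:92556322-92558910_F 3.92 higher, chr7:4827340-4863315_F changed by -10.15 and chr6:4841700-4847400_R by -6.44. Against quiescent cells, chr14:21461716-21462270_F differed by 0.05 (limma adjusted p = 0.804).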

How the data were processed

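There were 9 arrays (3 groups of 3). The scan software was Agilent Feature Extraction 10.7.1.1, going by the submitters' processing notes. Its processed signal, a linear intensity from which background was subtracted per the file headers, is the value used. The authors' deposited series table of the same intensity was an alternative. From log2 signals, each array's 75th percentile over non-control spots was subtracted, outlier spots were dropped and the spots of a probe averaged. A spot share of 0.5 above background on all 3 arrays of a group kept 36817 of 56605 probes. Positions are on mm9, per the file headers. Gene symbols were updated through RefSeq (GRCm38.p6, names only), which matched 43738 probes. limma 3.58.1 in R 4.3.3 (lmFit, eBayes, 1 mean per group over 9 arrays, two-sided) tested each probe, with Benjamini-Hochberg adjustment over all kept probes, and was checked on simulated data. Tables were made with Python 3.11.15.

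The quiescent arrays shared slide 1 with control-siRNA array 1, and the rest were on slide 2, so slide was also fitted as a block. The arrays' number limits the precision. Alternatives covered background correction, scaling, filter, probe choice, blocks, weights and leaving out each array. Named members were the 8 largest rises and 8 largest falls measured on all 6 arrays, 5 lower bounds each way, the 6 lowest p of the knockdown, the 5 brightest per group, 3 strand pairs, and the listed RNA genes. Marker lists covered hepatic stellate cells (9 of 15 measured genes higher, 5 lower in control-siRNA cells), cholangiocytes (2 of 4 higher, 1 lower) and mesothelial cells (4 of 4 higher), besides those in the text. The members and lists were chosen with earlier results of these data known.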

Additional observations from a re-analysis of the deposited data

How the results depend on the processing

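The 53 named results had 21 or 22 alternatives each, and 41 kept direction and call in all of them. Changes near 0 flipped sign without a call. For chr11:22681800-22707775_R the change became 0.028 (normexp with the 75th percentile), 0.071 (normexp with quantile normalization) and 0.094 (median scaling), and it ran from -0.12 to 0.070 as single arrays were left out. For chr7:108209996-108216032_R it became -0.083 (scaling to probes above background on all arrays) and -0.33 (with the slide as a block), and ran from -0.0010 to 0.34 over left-out arrays. For chr14:78924115-78938125_F the same scaling gave -0.063 and the slide block -0.012.

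In control-siRNA against quiescent cells, normexp with the 75th percentile gave 409 members higher and 1114 lower and a median log2 change of -0.30 (-0.14 over all probes). The filter on all 9 arrays gave 349 higher and a median of -0.083, no filter gave 875 lower and a median of -0.13, and slide as a block 241 lower. The median was 0.14 with normexp and quantile normalization, 0.52 with median scaling (0.51 over all probes) and 0.17 with scaling to probes above background on all arrays. Leaving out 1 array gave 836 to 1007 higher and 319 to 473 lower.

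In the knockdown, 1 member was called lower with each of normexp with the 75th percentile, normexp with quantile normalization, the filter on all 9 arrays, only the arrays compared, and an intensity trend with robust variance. Array weights gave 44 members lower and 11 higher, without a share over all kept probes to set beside them. Median scaling turned the median to 0.02 (0.09 over all probes). Without any 1 array, 0 were called.

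In Cav1-siRNA against quiescent cells, normexp with the 75th percentile gave 392 higher, 1224 lower and a median of -0.34, the filter on all 9 arrays 321 higher and -0.17, no filter 890 lower and -0.28, slide as a block 473 higher and 181 lower, and median scaling 289 lower and 0.49. The median was 0.11 with normexp and quantile normalization and 0.042 with scaling to probes above background on all arrays. The cause of these shifts was not tested.

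A window of 50 kb gave 3226 members with a neighbour, and a rule of background on all 9 arrays left 106 intervals with both strands and 368 with none. Counting a probe as detected by all or by any of its spots gave identical shares on every array, so this choice made no difference to any member and is no check of the shares.

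Whether the replicate numbers pair the samples is not known from the labels. Deviations of same-numbered arrays from their group means correlated between -0.10 and 0.16. No differently numbered arrays were set beside them, so these values cannot settle it. With the number as a replicate block, 968 members were higher and 405 lower in control-siRNA cells, 0 were called in the knockdown, and 852 were higher and 449 lower against quiescent cells.

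Signals near background limit these counts: fold changes of dim members depend on the background correction, and 1806 members could not be tested.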
